A study of Mus musculus with 3 samples.

Results

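Genes of the insulin and insulin-like growth factor (IGF) pathway were followed by symbol through the RNAseq count table of cultured adult mouse cardiomyocytes (ACMs). They comprised 10 of the 56748 genes listed: the ligand Igf1, the receptors Igf1r and Insr, the receptor substrates Irs1 and Irs2, and the binding proteins Igfbp3, Igfbp4, Igfbp5, Igfbp6 and Igfbp7. All 10 were listed in the table, and Igf1 alone had 0 counts in a library, that of IL-6. The ACMs came from hearts of wild-type (WT) mice, 8 to 10 weeks old, and were plated on laminin in serum before being moved to serum-free M199. They then received vehicle (0.1% BSA), 10 ng/mL mouse oncostatin M (OSM) or 10 ng/mL human interleukin-6 (IL-6) for 16 h. The medium of all 3 arms contained BSA, butanedione monoxime, a lipid supplement and insulin-transferrin-selenium, so every library, the vehicle library included, was made from cells cultured with insulin. RNA samples were pooled within a condition and gave 1 library each, so no difference below has a replicate check and no P-values were computed.

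Insulin and the IGFs signal through the related receptor tyrosine kinases encoded by Insr and Igf1r. The activated receptors phosphorylate the docking proteins IRS1 and IRS2, which recruit phosphoinositide 3-kinase (PI3K) and thereby activate AKT, and AKT in turn promotes glucose uptake and protein synthesis and keeps FOXO transcription factors out of the nucleus. The secreted IGF-binding proteins hold IGFs outside the cell, where they can limit or prolong access to the receptor. In the heart this pathway is known for its part in physiologic growth, metabolism and survival of cardiomyocytes.

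The libraries held 24939980 (vehicle), 26362446 (IL-6) and 30773001 (OSM) counts, of which mitochondrial genes held 17.4%, 16.1% and 13.6%. The part of this difference in the values below was not tested. Cardiomyocyte markers summed to 8627, 8904 and 11111 FPKM (the deposited level, a count scaled to gene length and library size) with vehicle, IL-6 and OSM. The corresponding sums were 0.888, 1.10 and 1.23 FPKM for 8 fibroblast markers, 7.39, 7.29 and 8.40 for 7 endothelial markers, 13.4, 13.6 and 15.9 for 7 smooth muscle and pericyte markers and 1.78, 1.25 and 2.10 for 8 macrophage markers, of which Cd163, C1qa, C1qb and F13a1 were at 0 in every library. Of these markers Ryr2, of cardiomyocytes, was called lower with OSM in both comparisons, and Col1a2 was called lower and Lyz2 higher for OSM against IL-6. Xist had 753, 725 and 279 counts and 4 Y-linked genes together 3545, 4034 and 3346, so transcripts of either sex were present in every pool, and Xist was called lower with OSM. Ryr2 (28790 bases) and Xist (17946 bases) are long genes, and longer protein-coding genes had lower ratios with OSM, as described below. For OSM against vehicle, the log2 ratio of Ryr2 minus the median of genes of similar length was -0.75. The part of length in these 2 calls, and that of the sex mix of the pools in the values below, was not tested. Socs3, the feedback inhibitor that responds to STAT3, had 670 counts with vehicle, 646 with IL-6 and 18194 with OSM.

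OSM-treated ACMs had IGF-binding protein transcripts in different proportions, and less Insr mRNA, than vehicle-treated ACMs. Of the 10 genes, 9 had the minimum of 10 counts over the vehicle and OSM libraries. Igfbp7 and Igfbp3 were higher with OSM and Igfbp5 and Insr were lower, each beyond 2-fold over its whole 95% counting interval, which was the criterion for a call. By that criterion 3.74% of the 15537 genes compared were higher with OSM and 5.43% were lower. The median log2 ratio of the 9 genes was -0.23, beside 0.0046 over all genes compared. With IL-6, 0 of 9 genes were called against vehicle, where 1.77% of 15472 genes were higher and 1.74% lower. Against IL-6 in place of vehicle, Igfbp7 was higher with OSM and Igfbp5 and Insr were lower, among 4.24% of 15544 genes higher and 5.42% lower. These comparisons share libraries, and each is given by its own values.

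**Figure D1:**
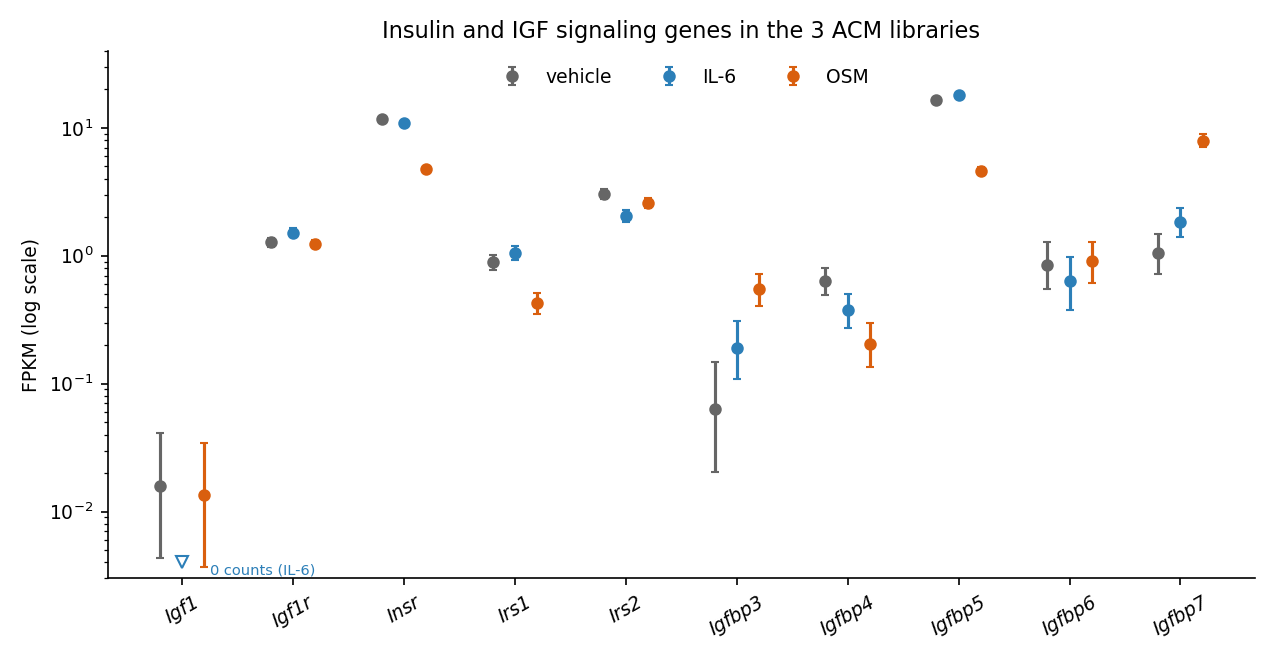
Expression of the 10 genes in each library, as deposited FPKM on a log axis. Points are the vehicle (grey), IL-6 (blue) and OSM (orange) libraries, 1 per condition, bars are exact 95% Poisson intervals of the counts, and the open triangle marks Igf1 with 0 counts in the IL-6 library. On the authors' gene lengths, Igfbp5 and Insr stood highest with vehicle and IL-6, and Igfbp7 with OSM.

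By deposited FPKM, which divides by the authors' gene length, Igfbp5 was the highest of the 10 genes in vehicle-treated ACMs at 16.4 (counting interval 15.8 to 17.1). It was followed by Insr at 11.7 (11.4 to 12.1), Irs2 at 3.02 (2.76 to 3.30) and Igf1r at 1.27 (1.17 to 1.39). The intervals of Igf1r, Igfbp7, Irs1, Igfbp6 and Igfbp4 overlapped from each gene to the next in that order, so these neighbours were not resolved. Igfbp3 and Igf1 came last, at 0.0631 and 0.0160 FPKM. The interval of Igf1 also overlapped that of Igfbp3. With IL-6, Igfbp7 stood above Igf1r, and its interval overlapped those of Irs2 and Igf1r. With OSM the highest of the 10 was Igfbp7 at 7.95 FPKM (7.06 to 8.92), and Insr at 4.76 and Igfbp5 at 4.63 could not be ordered. All these orders rest on the authors' gene lengths, 13746 bases for Insr, 1209 for Igfbp7 and 6006 for Igfbp5. The canonical GENCODE M39 transcripts of these genes have 9385, 5339 and 6006 bases. The ranks of Insr and Igfbp7, and the order of Insr and Igfbp5, therefore depend on the gene model.

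Igfbp5 (ENSMUSG00000026185) encodes a binding protein that attaches to extracellular matrix and was annotated at chr1:72897091-72914043 (GRCm39, as all positions here, minus strand). It had 2491 counts with vehicle, 2959 with IL-6 and 831 with OSM. The OSM library was the low one, and the vehicle and IL-6 libraries lay close together. The log2 ratio of scaled counts was -1.83 (-1.94 to -1.71) for OSM against vehicle, 3.54-fold lower, and -1.97 (-2.09 to -1.86) for OSM against IL-6. For IL-6 against vehicle it was 0.15 (0.07 to 0.23).

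Igfbp7 (ENSMUSG00000036256), on the minus strand at chr5:77497087-77555888, encodes a secreted protein of the family that binds IGFs only weakly. It had 32 counts with vehicle, 60 with IL-6 and 287 with OSM. The OSM library was far above both others, and the IL-6 library lay above vehicle by less than 2-fold. The log2 ratio was 2.92 (2.39 to 3.50) for OSM against vehicle, 7.59-fold higher. It was 2.12 (1.71 to 2.54) for OSM against IL-6 and 0.81 (0.17 to 1.47) for IL-6 against vehicle. The authors' annotation gives Igfbp7 a length of 1209 bases and lets it share 85 bases with Polr2b, which is read from the other strand and had 2389 counts with vehicle, 2353 with IL-6 and 1946 with OSM. In GENCODE M39 the canonical Igfbp7 transcript is 5339 bases long and the exons of the gene share 747 bases with those of Polr2b, so the FPKM of Igfbp7, and with it its rank among the 10 genes, depends on which gene model is used. The genes whose log2 ratios of OSM and IL-6 against vehicle lay closest to those of Igfbp7, among 11673 genes with at least 100 counts over the 3 libraries, were the lncRNA gene ENSMUSG00000121058, Rdh5, a retinol dehydrogenase gene, and Phactr3. Their distances on the log2 scale were 0.16, 0.17 and 0.31, over only 3 libraries.

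Igfbp3 (ENSMUSG00000020427, minus strand, chr11:7156086-7163923) encodes the main carrier of IGFs in blood. It had 5 counts with vehicle, 16 with IL-6 and 51 with OSM, so its level was low in every library. The log2 ratio of OSM against vehicle was 3.11 with a wide interval of 1.79 to 4.79. Against IL-6 it was 1.53 (0.70 to 2.44), and the interval reached below 2-fold. IL-6 against vehicle gave 1.58 (0.06 to 3.38).

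Igfbp4 (ENSMUSG00000017493, plus strand, chr11:98932070-98945218) encodes a binding protein that the protease PAPP-A cleaves to release IGF. It had 71 counts with vehicle, 45 with IL-6 and 27 with OSM, lowest with OSM. The log2 ratio of OSM against vehicle was -1.64 (-2.33 to -0.98), 3.11-fold lower, and the upper end of the interval just failed the 2-fold criterion. Relative to genes of similar length, described below, it passed the criterion, and also when the libraries were scaled by total counts. Igfbp6 (ENSMUSG00000023046, plus strand, chr15:102052797-102057946), whose product prefers IGF2, had 24, 19 and 30 counts with vehicle, IL-6 and OSM, with a log2 ratio of 0.08 (-0.74 to 0.92) for OSM against vehicle. A difference of less than 2-fold in either direction could not be resolved at these counts. Igfbp1 and Igfbp2 had 0 counts in all 3 libraries, which allows up to 3 counts each (a 1-sided limit, the floor used for a count of 0).

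Summed over the 7 genes Igfbp1 to Igfbp7, binding protein transcripts amounted to 19.0 FPKM with vehicle, 21.2 with IL-6 and 14.2 with OSM. Igfbp5 made up 86.3% of this sum with vehicle, 85.7% with IL-6 and 32.5% with OSM. Igfbp7 made up 5.51%, 8.64% and 55.8%. Shares of the raw counts do not use the annotated gene length, but a longer transcript still gives more counts. In these shares Igfbp5 held 94.1 to 95.8% with vehicle, 94.7 to 96.2% with IL-6 and 65.1 to 70.4% with OSM (exact Clopper-Pearson 95% intervals). Igfbp7 held 1.22% (0.836 to 1.72), 1.94% (1.48 to 2.49) and 23.4% (21.1 to 25.9). The FPKM ratio of Igfbp5 to Igfbp7 was 15.7 (11.1 to 23.0) with vehicle, 9.93 with IL-6 and 0.583 (0.509 to 0.669) with OSM. The order of these 2 genes thus turned around with OSM on the authors' gene lengths, whereas in raw counts Igfbp5 stayed ahead in every library. Those lengths are 6006 bases for Igfbp5 and 1209 for Igfbp7, so raw counts favour Igfbp5. The canonical Igfbp7 transcript has 5339 bases, so the order of the 2 genes with OSM depends on the gene model. IGF-binding proteins are also made by fibroblasts, endothelial cells and pericytes. In OSM against vehicle, 0 of the 6 fibroblast, 0 of the 7 endothelial and 0 of the 5 smooth muscle and pericyte markers compared were called in either direction. Of all genes compared, only 3.74% were called higher and 5.43% lower, so few calls would be made among so few genes. Single markers differed in either direction without a call. Of the fibroblast markers, Dcn had 49, 48 and 131 counts with vehicle, IL-6 and OSM (log2 ratio 1.18, 0.69 to 1.68, for OSM against vehicle), Col1a1 had 6, 0 and 0, and Tcf21 was at 0 with OSM. Of the pericyte markers, Cspg4 had 111, 219 and 290 (1.14, 0.82 to 1.47), Rgs5 had 73, 52 and 46 (-0.91, -1.47 to -0.36), and Kcnj8 had 0, 0 and 9, too few for a comparison. The part of these cells in the binding protein counts was not tested, and in bulk RNA a change in their number cannot be told from a change in RNA per cell.

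**Figure D2:**
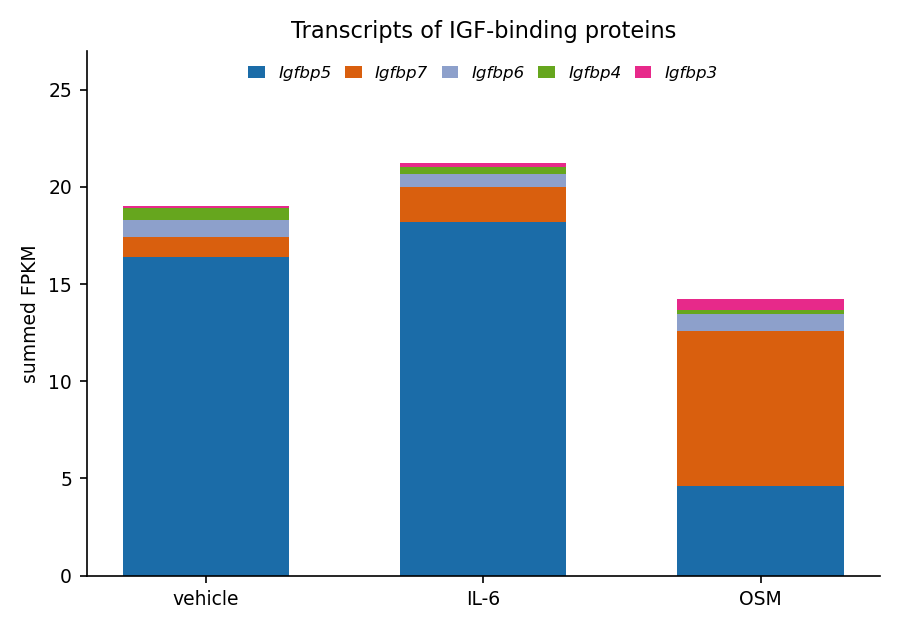
Summed FPKM of IGF-binding protein genes in each library, with 1 bar per condition divided by gene. Igfbp1 and Igfbp2, at 0 counts, are not drawn. On the authors' gene lengths, Igfbp5 (dark blue) made up 86.3% of the vehicle bar and 32.5% of the OSM bar, and Igfbp7 (orange) 5.51% and 55.8%.

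Because Igfbp7 and Igfbp5 were called in opposite directions, the 250 bases before the start of the canonical GENCODE M39 transcript are shown for both, on the strand of the gene in GRCm39, with CG dinucleotides in capitals. The Igfbp7 sequence (chr5:77555915-77556164, minus strand) has 26 CG dinucleotides and 73.2% G and C, more than 96.3% of the 21752 protein-coding promoters of that length. The Igfbp5 sequence (chr1:72914044-72914293, minus strand) has 11 and 62.0%. The median promoter had 53.2% G and C. Igfbp3, also called higher with OSM, had 54.8%, and Insr, also called lower, had 58.0%. Igf1r (80.8%) and Irs1 (75.6%), neither of them called, had more than Igfbp7. The part of base composition in the ratios was not tested.
Igfbp7: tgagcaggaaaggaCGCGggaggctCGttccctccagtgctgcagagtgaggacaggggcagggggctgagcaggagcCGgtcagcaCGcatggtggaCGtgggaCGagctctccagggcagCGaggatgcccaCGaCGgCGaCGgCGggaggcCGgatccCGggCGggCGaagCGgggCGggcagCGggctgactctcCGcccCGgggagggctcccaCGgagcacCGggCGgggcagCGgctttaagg
Igfbp5: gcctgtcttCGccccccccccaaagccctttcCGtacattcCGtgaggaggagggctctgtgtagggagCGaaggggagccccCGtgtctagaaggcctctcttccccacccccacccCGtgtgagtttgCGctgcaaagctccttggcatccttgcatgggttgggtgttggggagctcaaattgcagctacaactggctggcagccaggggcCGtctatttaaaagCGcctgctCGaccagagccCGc

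Across the 1000 bases before the start, 2 motifs were searched on both strands. The palindrome TTCNNNGAA, recognised by STAT factors, was found in 1 of the 10 promoters, that of Igf1r, where 28.6% of all 21752 promoters held it. The core TGTTTAC, bound by FOXO factors, was found before Irs2, Igfbp3 and Igfbp7 (3 of 10), where 12.6% of all promoters held it. Within 250 bases of the start, 0 of the 10 genes had either match, where 7.70% of all promoters held the palindrome and 2.72% the FOXO core. The matches are printed below in capitals with 10 bases on each side, on the strand of the gene, at chr7:67601206-67601214 (Igf1r), chr8:11060055-11060061 (Irs2), chr11:7165065-7165071 (Igfbp3) and chr5:77556234-77556240 (Igfbp7). The FOXO core of Igfbp3 and Igfbp7 lies on the opposite strand and is read there as its reverse complement. A match describes the letters only and says nothing of binding.
Igf1r: tgttgttgttTTCAATGAAgctccgaggc
Irs2: gggtttgtttTGTTTACgcatccagag
Igfbp3: ccagcctatgGTAAACAactcaagagt
Igfbp7: atttaatgaaGTAAACAgtgcattttc

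Among the receptors, Insr (ENSMUSG00000005534), which encodes the insulin receptor and lies on the minus strand at chr8:3172061-3329617, was lower with OSM. It had 4074 counts with vehicle, 4038 with IL-6 and 1954 with OSM, so that the OSM library stood apart from the other 2. The log2 ratio was -1.30 (-1.38 to -1.22) for OSM against vehicle, 2.46-fold lower, and -1.19 (-1.27 to -1.11) for OSM against IL-6. Igf1r (ENSMUSG00000005533, plus strand, chr7:67602575-67883416), which encodes the IGF1 receptor, had 541, 690 and 619 counts with vehicle, IL-6 and OSM. Its log2 ratio of OSM against vehicle was -0.05 (-0.22 to 0.12), and that of IL-6 against vehicle was 0.25 (0.09 to 0.42). Insr exceeded Igf1r in FPKM by 9.20-fold (8.41 to 10.1) with vehicle, 7.15-fold (6.59 to 7.76) with IL-6 and 3.86-fold (3.52 to 4.23) with OSM. The insulin receptor transcript thus predominated in every library, and by less with OSM.

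Of the receptor substrates, Irs1 (ENSMUSG00000055980, minus strand, chr1:82210822-82269137) had 206 counts with vehicle, 262 with IL-6 and 116 with OSM. Its log2 ratio of OSM against vehicle was -1.07 (-1.41 to -0.73) and of OSM against IL-6 -1.32 (lower end -1.65, upper end just short of 2-fold), both beyond 2-fold in the estimate but not over the whole interval. Scaled by total counts, the second of these was called. Irs2 (ENSMUSG00000038894, minus strand, chr8:11034681-11058458) had 483, 349 and 488 counts with vehicle, IL-6 and OSM and was lowest with IL-6. Its log2 ratio was -0.57 (-0.77 to -0.37) for IL-6 against vehicle and -0.23 (-0.41 to -0.04) for OSM against vehicle. Irs2 exceeded Irs1 in FPKM in every library, by 3.39-fold (2.87 to 4.01) with vehicle, 1.93-fold (1.64 to 2.27) with IL-6 and 6.08-fold (4.96 to 7.52) with OSM.

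Igf1 (ENSMUSG00000020053, plus strand, chr10:87694127-87772904) had 4 counts with vehicle, 0 with IL-6 and 4 with OSM. It was at or near the floor of 3 counts in all libraries and below the minimum for a comparison. The other ligand genes were no more abundant, since Ins1 and Ins2 had 0 counts in every library and Igf2 had 8, 0 and 0. Transcripts of ligands were therefore barely detectable at this depth.

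**Figure D3:**
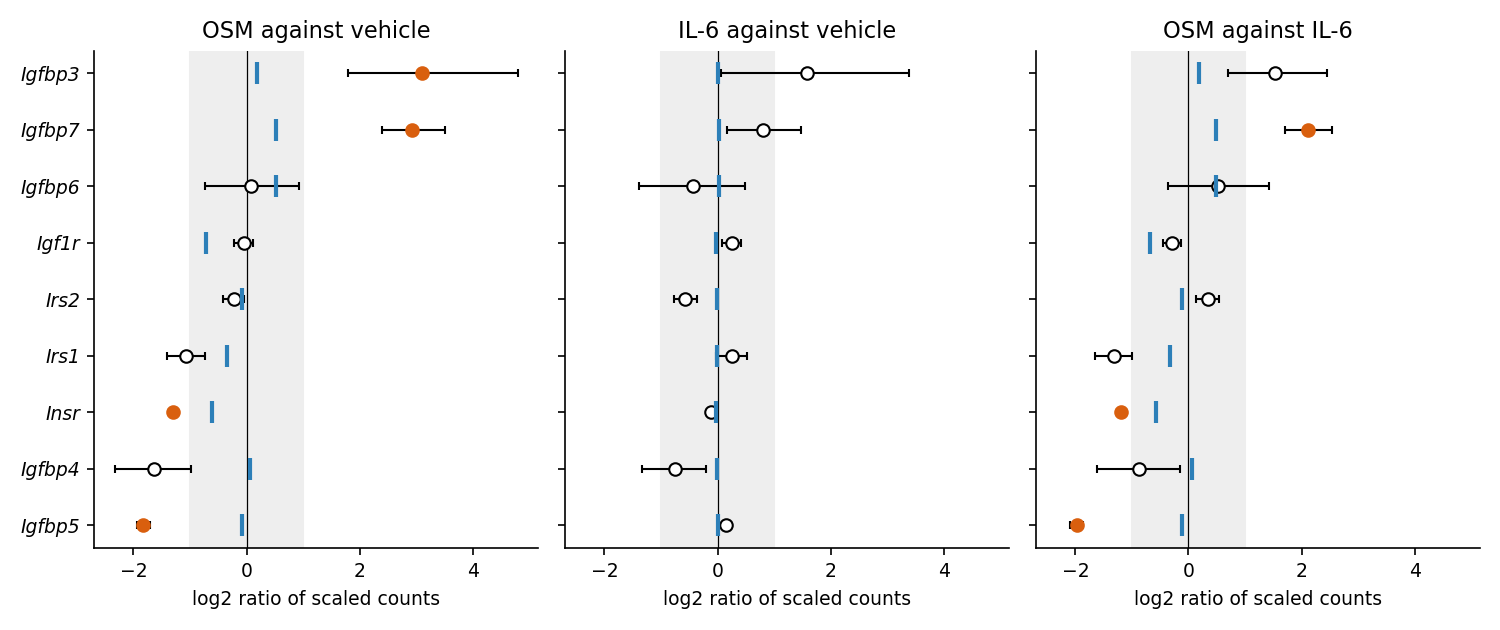
Log2 ratio of TMM-scaled counts for the 9 genes with enough counts, in 3 panels, 1 per comparison. Circles are estimates with 95% counting intervals, filled orange where the whole interval lay outside the grey 2-fold band, and blue ticks mark the median of the 500 protein-coding genes closest in length. Filled circles are Igfbp3, Igfbp7, Insr and Igfbp5 for OSM against vehicle and Igfbp7, Insr and Igfbp5 for OSM against IL-6, and the IL-6 against vehicle panel has 0 filled circles.

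Gene length moved with these ratios. Across 9445 protein-coding genes that averaged 100 counts or more in the vehicle and OSM libraries, longer genes had lower log2 ratios of OSM against vehicle (Spearman's rho of -0.52, a description over genes that share both libraries). For IL-6 against vehicle rho was -0.07 over 9361 genes. The 500 protein-coding genes closest in length to Insr, a gene of 13746 bases in the authors' annotation, had a median log2 ratio of -0.62 with OSM, and the ratio of Insr minus that median was -0.69. Relative to it, the counting interval of Insr no longer cleared 2-fold. The canonical transcript of Insr is 9385 bases long, and at that length the difference was -0.94. The median for genes as long as Irs1 was -0.34 and for genes as long as Igf1r -0.71, and Igf1r lay 0.67 above the latter. For Igfbp5 the median was -0.09, and the gene lay -1.74 from it. For Igfbp7 the median was 0.51 at its annotated length and -0.09 at the length of the canonical transcript, and the gene lay 2.41 or 3.02 above. For Igfbp3 it was 0.19 and for Igfbp4 0.06. The calls of Igfbp5, Igfbp7 and Igfbp3 for OSM against vehicle were also made relative to genes of similar length. The part of gene length in the ratio of Insr was not tested.

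**Figure D4:**
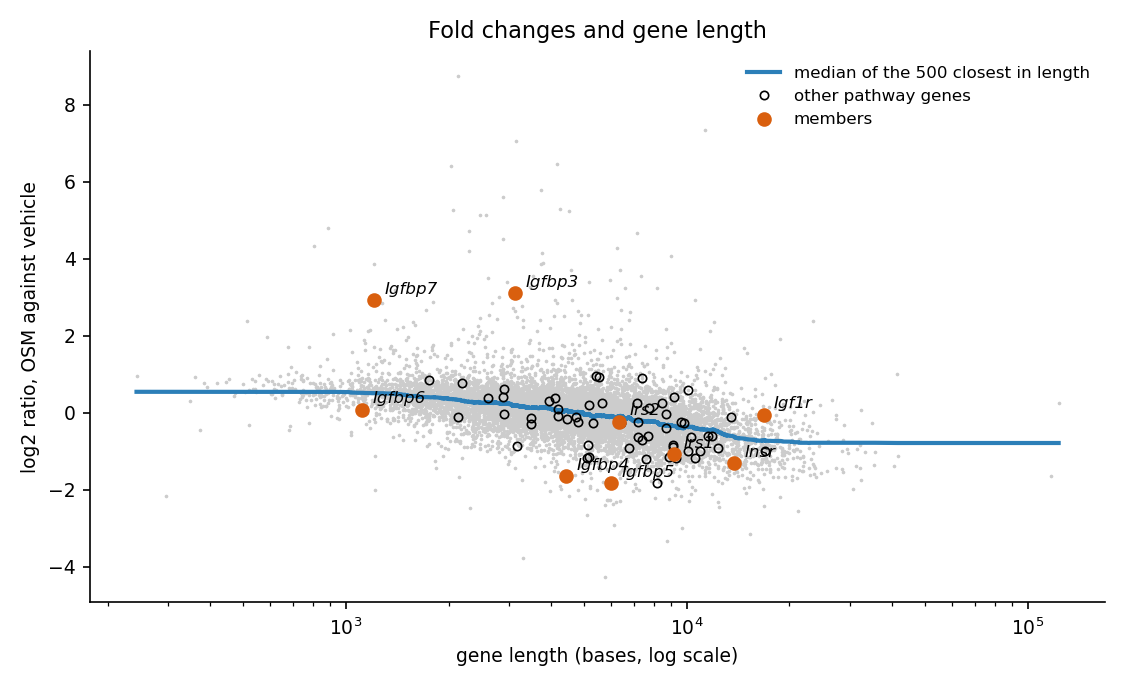
Log2 ratio of OSM against vehicle plotted against gene length in bases (log axis) for 9445 protein-coding genes (grey), 56 other genes of the pathway (open circles) and the 9 compared genes (orange). The blue line is the running median of the 500 genes closest in length, which declines from left to right. Igfbp3 and Igfbp7 lie above the line, Igfbp4, Igfbp5, Irs1 and Insr below it, and Igf1r above it although its ratio is near 0.

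The wider pathway was read from a list of 68 further genes in 11 groups by role. Of these, 57 had enough counts, and with OSM against vehicle 0 were higher and 5 were lower (Igf2r, Gab1, Sos1, Foxo3 and Pappa), beside the 3.74% and 5.43% of all genes given above. The median log2 ratio of the 57 genes was -0.25, and their median length was 7185 bases, beside 0.0046 and 3912 bases over all genes compared. IL-6 against vehicle gave 0 higher and 0 lower of 57 (median 0.04), beside 1.77% and 1.74% of all genes. OSM against IL-6 gave 0 higher and 6 lower of 56 (median -0.33), beside 4.24% and 5.42% of all genes. The 6 were Igf2r, Gab1, Foxo3, Deptor, Pik3r3 and Rictor.

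Igf2r encodes the receptor that takes up IGF2 for degradation and also sorts lysosomal enzymes. It had 4995 counts with vehicle, 5262 with IL-6 and 2610 with OSM, with a log2 ratio of -1.18 (-1.25 to -1.11) for OSM against vehicle. In FPKM, Insr stood at 0.552 of Igf2r with vehicle (0.530 to 0.576), 0.520 with IL-6 (0.499 to 0.541) and 0.507 with OSM (0.478 to 0.538). Insr and Igf2r were thus both called lower with OSM, and Igf1r was not called. Igfals, for the subunit that stabilises IGF complexes in blood, had 37, 44 and 24 counts with vehicle, IL-6 and OSM and was not called in any comparison.

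Among proteases that cleave binding proteins and their inhibitors, Htra1 was the most abundant, at 51.8 FPKM with vehicle, 53.2 with IL-6 and 69.3 with OSM (log2 ratio 0.42, 0.36 to 0.48, for OSM against vehicle). Pappa, which encodes PAPP-A, had 15 counts with vehicle, 3 with IL-6 and 0 with OSM, at least 5.91-fold lower with OSM than with vehicle when the OSM library is put at the floor of 3 counts and the vehicle count is taken as exact. With the counting error of both libraries, the interval of its log2 ratio ended at -2.08. Stc2, for an inhibitor of PAPP-A, had 710, 783 and 382 counts, and its log2 ratio of -1.14 (-1.32 to -0.95) with OSM narrowly missed the criterion.

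Of the 8 compared adaptor genes, Gab1 and Sos1 were lower with OSM than with vehicle. Gab1, a docking protein of receptor tyrosine kinases, had 1225, 1372 and 646 counts with vehicle, IL-6 and OSM (log2 ratio -1.16, -1.30 to -1.03), and Sos1, a Ras activator, had 1302, 1349 and 688 (-1.16, -1.30 to -1.03). Grb2, the adaptor that binds SOS, was the most abundant at 41.0 FPKM with vehicle and 63.3 with OSM. Of the 10 inhibitors of the receptors and of PI3K signaling 0 were called in any comparison, beside 1.74% to 5.43% of all genes per comparison and direction. Trib3, which binds AKT and restrains it, was the most abundant of them at 103 FPKM with vehicle and 95.7 with OSM.

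Among the 9 genes of PI3K and AKT, 0 were called against vehicle with either cytokine. Over all genes, 3.74% were called higher and 5.43% lower with OSM, and 1.77% and 1.74% with IL-6. Akt1 was at 36.3 FPKM with vehicle, 38.1 with IL-6 and 47.9 with OSM, with an interval that overlapped that of Akt2 (35.1 FPKM) with vehicle. Pik3r3, a regulatory PI3K subunit, had 125, 291 and 122 counts with vehicle, IL-6 and OSM, and so was highest with IL-6. Its log2 ratio was 1.12 (0.81 to 1.43) for IL-6 against vehicle and -1.40 (-1.71 to -1.09) for OSM against IL-6. Of the 12 TSC and mTOR genes, Deptor, an mTOR inhibitor, had 503, 628 and 270 counts and Rictor, of mTOR complex 2, had 623, 799 and 374. Both were called lower with OSM against IL-6 (-1.36, -1.57 to -1.15, and -1.24, -1.42 to -1.06), and neither against vehicle. Eif4ebp1, the translation repressor that mTOR phosphorylates, was the most abundant of this group at 101 FPKM with vehicle, 106 with IL-6 and 173 with OSM (0.77, 0.72 to 0.82, for OSM against vehicle).

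Foxo3 was the FOXO gene that was lower with OSM, with 2345 counts with vehicle, 2537 with IL-6 and 1219 with OSM (log2 ratio -1.19, -1.29 to -1.08, for OSM against vehicle). Foxo1, with 289, 452 and 333 counts, and Foxo4, the most abundant at 18.4, 17.9 and 16.7 FPKM, were not called. Of the 6 genes for glucose uptake and glycogen 0 were called in any comparison, beside 1.74% to 5.43% of all genes per comparison and direction. Slc2a4, for the insulin-responsive glucose transporter, was at 39.6, 41.3 and 32.6 FPKM with vehicle, IL-6 and OSM. Igf2bp2, which encodes an RNA-binding protein of IGF2 mRNA, had 631, 653 and 1402 counts, a log2 ratio of 0.91 (0.77 to 1.05) for OSM against vehicle that remained under 2-fold in the estimate. Relative to genes of similar length, Pappa alone of the 5 lower genes was still called for OSM against vehicle. For OSM against IL-6, only Gab1 and Pik3r3 of the 6 lower genes were still called, and Igf2bp2 was then called higher.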

How the data were processed

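RNAseq was performed on ACMs treated with vehicle, human IL-6 or OSM, with 1 library of pooled RNA per condition and groups taken from the sample labels. The authors deposited whole-number counts per gene without normalization, from paired reads mapped to GRCm39 and assigned with featureCounts. The submitters' processing notes name fastp, HISAT2 2.2.1, featureCounts 2.0.6 and edgeR 4.0.16, whereas the paper names other versions of the last 2. Whether counting used the strand and which annotation release was used are not given in the sources used here. The deposited FPKM of each of the 18537 genes with counts in the vehicle library equals its count divided by gene length and a constant (relative tolerance 1e-06), and likewise in the other libraries. No per-sample column was left unmatched.

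Counts were scaled with TMM factors (edgeR 4.0.16, R 4.3.3) for each pair of libraries, and genes that reached 10 counts in both libraries combined were compared. A log2 ratio carries the 95% Clopper-Pearson interval of the paired counts. Intervals describe counting error alone, since PCR duplicates without molecular identifiers do not count molecules, and the spread between cultures is unknown. Ratios of FPKM between genes carry the same kind of interval. The medians of genes of similar length use the 500 protein-coding genes closest in length with at least 100 counts on average. Gene models, promoters and shared exons were read from GENCODE M39 and the GRCm39 genome, the build of the files. Protein sequences were not used here. The calculations were tested on simulated data.

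The members, the lists and the tests were chosen with earlier results of these data known. Named were all members, every pathway gene called in any comparison, the gene of each pathway group with the highest FPKM with vehicle, the 3 genes closest in pattern to the member with the largest change among those with at least 100 counts over the 3 libraries (Igfbp7), and overlapping genes. Stc2, Foxo1 and Igf2bp2's ratio, Igfbp1, Igfbp2, Ins1 and Ins2 were given after their values were seen. In 10 alternatives per comparison, other scalings (DESeq2 1.42.0 size factors, total counts), filters, call rules, wider intervals, deposited FPKM and a length adjustment were tried.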

Additional observations from a re-analysis of the deposited data

How the results depend on the processing

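With 1 library of pooled RNA per condition, the spread between cultures is unknown and leaving out a replicate was not possible. No paired analysis was possible because each condition has 1 library. Of 261 log2 ratios of the compared members under alternatives, 252 stayed within the counting interval of the reported value and 0 called ratios changed sign. Most of the 252 were fixed in advance, because the filters, call rules and assumed spreads leave a ratio unchanged. Only the scalings, deposited FPKM and the length adjustment could move one. The 9 ratios outside the interval came from the length adjustment, except that of Insr for OSM against IL-6 scaled by total counts. Igfbp7 was called for OSM against vehicle under all 11 settings (2.41 to 2.93), Igfbp5 under 10 (-1.89 to -1.74) and Insr under 8 (-1.36 to -0.69). Insr was not called with either assumed spread or relative to genes of similar length. Igfbp3 was called under 9 of the 10 settings that compared it (2.92 to 3.12), the exception being the larger assumed spread. It had too few counts for the minimum of 100. Of 180 counts of calls, 103 stayed within 1.5 times the reported count, and the others follow. With a minimum of 100 counts, the calls that moved were 1 higher of the 10 genes, 323 higher and 430 lower of all genes for OSM against vehicle, and 12 higher and 7 lower of all genes for IL-6 against vehicle, and 325 higher and 406 lower of all genes for OSM against IL-6. With deposited FPKM and calls on the estimate alone, the calls that moved were 4 lower of the 10 genes, 8 lower of the pathway list, 1573 higher and 2031 lower of all genes for OSM against vehicle, and 1 higher of the 10 genes, 1 higher and 1 lower of the pathway list, 1040 higher and 1023 lower of all genes for IL-6 against vehicle, and 2 higher of the 10 genes, 10 lower of the pathway list, 1557 higher and 1979 lower of all genes for OSM against IL-6. With calls on intervals that miss a ratio of 1, the calls that moved were 5 lower of the 10 genes, 14 higher and 34 lower of the pathway list, 5186 higher and 5137 lower of all genes for OSM against vehicle, and 4 higher and 3 lower of the 10 genes, 15 higher and 7 lower of the pathway list, 3028 higher and 2953 lower of all genes for IL-6 against vehicle, and 3 higher and 5 lower of the 10 genes, 12 higher and 35 lower of the pathway list, 5160 higher and 5156 lower of all genes for OSM against IL-6. With a threshold of 1.5-fold, the calls that moved were 4 lower of the 10 genes, 4 higher and 14 lower of the pathway list, 1357 higher and 1850 lower of all genes for OSM against vehicle, and 1 higher and 1 lower of the pathway list, 457 higher and 445 lower of all genes for IL-6 against vehicle, and 2 higher of the 10 genes, 3 higher and 14 lower of the pathway list, 1365 higher and 1854 lower of all genes for OSM against IL-6. With an assumed coefficient of variation of 0.2 between cultures, the calls that moved were 1 lower of the 10 genes, 1 lower of the pathway list, 223 higher and 294 lower of all genes for OSM against vehicle, and 67 higher and 106 lower of all genes for IL-6 against vehicle, and 1 lower of the 10 genes, 0 lower of the pathway list, 260 higher and 286 lower of all genes for OSM against IL-6. With such a coefficient of 0.4, the calls that moved were 1 higher and 0 lower of the 10 genes, 0 lower of the pathway list, 90 higher and 110 lower of all genes for OSM against vehicle, and 21 higher and 41 lower of all genes for IL-6 against vehicle, and 0 higher and 0 lower of the 10 genes, 0 lower of the pathway list, 124 higher and 102 lower of all genes for OSM against IL-6. Relative to genes of similar length, the calls that moved were 1 lower of the pathway list for OSM against vehicle, and 1 lower of the 10 genes, 1 higher and 2 lower of the pathway list for OSM against IL-6.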
